A study of Saccharomyces cerevisiae with 24 samples.

Results

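The subject is the interaction of strain code and arrest in total RNA of budding yeast, that is, the genes whose change from G1 arrest to mitotic (M) arrest differed between the 2 strain codes in the names of the data columns. All 12 total RNA libraries of the series entered it, out of 24 libraries in all. There were 3 libraries for each combination of code (14 or 18) and arrest (G1 or M). The other 12 libraries, made from polyA-selected RNA of the same RNA samples, were fitted on their own and are given beside the total RNA values. The interaction is the log2 change from G1 to M in code 18 minus the log2 change from G1 to M in code 14. A positive value therefore means a larger rise, or a smaller fall, in code 18.

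Condensin is a ring-shaped complex that compacts chromosomes and is needed for their segregation in mitosis, and Ycg1 is one of its regulatory subunits. In budding yeast condensin is bound along chromosomes, with a high density at the ribosomal DNA, in both interphase and mitosis. α-factor holds MATa cells in G1 before the wave of G1/S transcription that the MBF and SBF factors drive, and nocodazole stops cells in mitosis by depolymerising the spindle microtubules.

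The labels name 2 strains of the W303 background. The control is MATa with YCG1-3PK, a Ycg1 with an epitope tag, marked by K. lactis TRP1. The other, ycg1Degron1, expresses a Ycg1 with the same epitope plus 3miniAID from the methionine-repressible MET3 promoter, and carries OsTIR1-9Myc under the ADH1 promoter, which targets the tagged protein for destruction in auxin. OsTIR1 is therefore in one strain only, while both strains received every treatment. Cultures grew at 25°C in synthetic medium without methionine and were given α-factor for 1.5 h. They were then moved to rich YPD medium with auxin at 88 μg/ml for 2 h, still in α-factor, and the G1 sample was taken. Release from α-factor into YPD with auxin and nocodazole for a further 2 h gave the M sample. An M sample thus differs from a G1 sample also by passage through S phase and by a longer time in rich medium with auxin, and these cannot be told apart from the arrest. No label used here says which strain is code 14 and which is code 18, so the codes stand for themselves throughout and no direction below is assigned to depletion.

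Each total RNA library held 13932403 to 21650529 counts, of which 95.3% to 95.8% lay on rows of ribosomal DNA (RDN) transcripts. After these and the ERCC spike-in rows were set aside, 595508 to 979155 counts per library were left, and 4962 genes passed the filter on low counts. Levels are given as CPM, the counts left after these rows were set aside, scaled to a common total. The mating markers fitted the labelled MATa type. The 7 a-cell markers summed to 2380 to 3490 CPM in G1 and 470 to 706 CPM in M, and STE3 and both α-factor genes had at most 3 counts in any library, while SAG1, the fourth α-cell marker, had 19 to 109. The 4 pheromone-induced markers summed to 3940 to 6590 CPM in G1 and 151 to 371 CPM in M, and the 4 mitotic markers to 55.0 to 108 CPM in G1 and 247 to 353 CPM in M. YCG1 itself stood at 66.1, 32.9 and 37.4 CPM in code 14 G1 and at 23.2, 22.3 and 22.3 CPM in code 14 M. In code 18 it stood at 80.2, 53.9 and 68.8 CPM in G1 and at 76.7, 66.0 and 58.1 CPM in M. Its interaction was 0.99 (SE 0.35, edgeR adjusted p = 0.12) in total RNA and -0.22 (SE 0.17, adjusted p = 0.48) in polyA RNA, and its values were not used to name the codes.

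In 2 libraries the G1/S genes stood apart. The 26 listed targets of MBF and SBF summed to 2560 CPM in code 18 G1 replicate 3, against 1450 and 1110 CPM in the other 2 libraries of that group. In code 14 M replicate 3 they summed to 1490 CPM, against 2140 and 2100 CPM. The named G1/S genes and the histones are given below with and without these libraries.

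The M against G1 change differed between the codes in 159 genes, 3.20% of those tested (edgeR quasi-likelihood test, adjusted p at most 0.05). Of these, 75 had a positive interaction (1.51% of all genes tested) and 84 a negative one (1.69%). These shares are the background for the counts of called list members below. At an unadjusted p below 0.05 there were 754 genes. Of the called genes, 65 positive and 34 negative ones differed by more than 1.5-fold, so that the negative calls were mostly of small size. The median interaction over all genes tested was 0.02 on the log2 scale. In the polyA libraries, which held 9644296 to 21666594 counts after the same rows were set aside, 213 of 5834 genes were called (3.65%), 146 positive (2.50%) and 67 negative (1.15%). Of the 159 genes called in total RNA, 148 had the same sign in the polyA libraries and 67 were also called there in the same direction, both types coming from the same RNA samples.

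The negative calls had largely one form. In 59 of the 84 genes the level rose from G1 to M in code 14 and did not pass the test in code 18, and in 15 it fell in code 18 and did not pass in code 14. A further 3 rose in code 14 and fell in code 18, 4 rose in both and 3 fell in both. Over all genes tested, 9.75% rose and 7.70% fell in code 14, and 7.68% rose and 7.30% fell in code 18. The positive calls were more mixed. Of the 75, 22 fell in code 14 only, 22 rose in code 18 only, 13 fell in code 14 and rose in code 18, 13 rose in both, 2 fell in both and 3 passed in neither.

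Most of the called genes differed between the codes in the G1 arrest. Of the 75 positive genes, 50 were lower in code 18 than in code 14 in G1 and did not pass in M, and 15 were higher in code 18 in M alone. Of the 84 negative genes, 63 were higher in code 18 in G1 and did not pass in M, and 12 were lower in code 18 in M alone. The background for these counts was that 4.82% of all genes were higher and 4.39% lower in code 18 in G1, and 1.87% were higher and 2.16% lower in M.

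**Figure D1:**
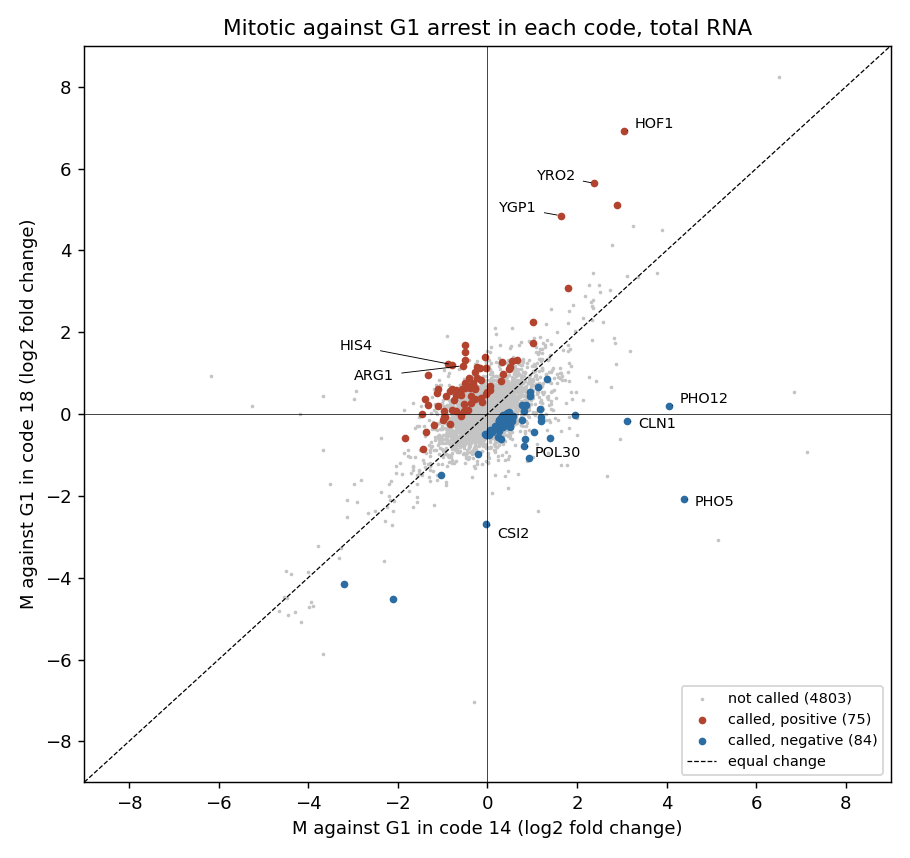
The change from G1 to M arrest in code 14 (x axis) and code 18 (y axis), both as log2 fold changes in total RNA, with 1 point per gene tested. The 75 positive interactions (red) lie above the line of equal change and the 84 negative ones (blue) below it, with PHO5 farthest below.

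How firmly these counts stood against single libraries differed by direction. With each library left out in turn, the positive count ran from 51 to 115 and passed 1.5 times its value only without code 14 G1 replicate 3 (115). The negative count fell to 31 without code 14 M replicate 2, to 42 without code 18 M replicate 1, and to 46 and 51 without code 18 G1 replicates 1 and 3. It was 49 and 52 without code 14 G1 replicates 1 and 2, and rose to 171 without code 14 G1 replicate 3. Leaving out all 4 libraries of a replicate number left 2 per group. There were then 17 positive and 2 negative calls without replicate 1, 26 and 14 without replicate 2, and 79 and 120 without replicate 3. Of the 58 called genes that the naming rule gave, 46, 34 and 16 lost their calls in these 3 fits, and ARG1, ARO3, ARO5, LEU4, SNZ1, YGP1 and YHI9 were among those called in each.

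Genes of amino acid biosynthesis made up the largest group of positive interactions among the lists examined. Many of them are targets of Gcn4, the activator of general amino acid control, which binds the short element TGACTC. Of 46 tested members, 19 had a positive interaction and 0 a negative one, against the 1.51% and 1.69% of all genes, and the list median was 0.43 against 0.02 over all genes. In G1, 35 of the 46 were lower in code 18 than in code 14 and 0 were higher. In M, 10 were lower and 0 higher. From G1 to M, 28 members rose and 0 fell in code 18, while 8 rose and 12 fell in code 14. The summed level of the list was 25200, 25300 and 23700 CPM in code 14 G1, and 15700, 15800 and 17100 CPM in code 18 G1. It was 23900, 24800 and 26300 CPM in code 14 M and 23800, 23400 and 26200 CPM in code 18 M, so the groups of the 2 codes overlapped in M and not in G1.

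The strongest call in this list was ARG1, argininosuccinate synthase, the penultimate enzyme of arginine synthesis. It measured 729, 699 and 544 CPM in code 14 G1 and 418, 417 and 513 CPM in code 14 M. In code 18 it measured 116, 97.2 and 131 CPM in G1 and 286, 256 and 240 CPM in M. No groups overlapped: ARG1 fell by 0.55 on the log2 scale in code 14 (edgeR adjusted p = 8.3e-04) and rose by 1.18 in code 18 (adjusted p = 9.1e-08). The interaction was 1.73 (SE 0.17, adjusted p = 4.7e-07), and in polyA RNA it was 2.23 (SE 0.20).

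HIS4, a multifunctional enzyme of histidine synthesis, had the largest interaction in the list. Its levels were 812, 719 and 548 CPM in code 14 G1, then 383, 345 and 471 CPM in code 14 M. In code 18 they were 95.0, 96.0 and 150 CPM in G1 and 239, 230 and 327 CPM in M. Again no groups overlapped, with code 18 below code 14 in both arrests. The interaction was 2.00 (SE 0.33, edgeR adjusted p = 0.013).

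ARO3, an enzyme of the first step of aromatic amino acid synthesis, fell in code 14, from 501, 508 and 363 CPM to 251, 265 and 282 CPM. In code 18 it rose, from 210, 213 and 243 CPM to 349, 324 and 350 CPM. The order of the codes was thus turned: every code 18 library lay below code 14 in G1 and above it in M. The ARO3 interaction was 1.40 (SE 0.16, edgeR adjusted p = 4.7e-07), although the difference between the codes in M did not pass on its own (0.36, adjusted p = 0.068).

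LEU4, an α-isopropylmalate synthase of leucine synthesis, had the same order. It went from 1230, 1220 and 1120 CPM to 785, 837 and 881 CPM in code 14, and from 570, 604 and 700 CPM to 910, 885 and 1100 CPM in code 18. The interaction of LEU4 was 1.14 (SE 0.13, edgeR adjusted p = 4.7e-07).

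The other called members covered several branches. They included ARO1, ARO4, TRP2, TRP4 and TRP5 of aromatic synthesis, HIS1 and HIS5 of histidine, ILV6 and LEU1 of the branched-chain pathways, ARG4 of arginine, LYS20 of lysine, HOM2 and HOM3 of the aspartate family and ASN1 of asparagine. The called members ran from 0.41 for ARO1 to 2.00 for HIS4. GCN4 itself, whose activity is regulated largely at translation, had an interaction of 0.31 (SE 0.12, edgeR adjusted p = 0.17). In polyA RNA 28 of the 46 members were called positive and the list median was 0.57. ARG1, ARO3, LEU4 and HIS4 kept their calls in all 12 fits that left out 1 library, and the count of called members ran from 15 to 21. The call of HIS4 was lost without all libraries of replicate 1 (1.80, adjusted p = 0.19) or of replicate 2 (1.84, adjusted p = 0.27), and 7 and 8 members of the list were then called.

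The windows upstream of ARG1 and HIS4 are shown because most called members of this list hold the Gcn4 element there. Each window covers the bases 400 to 101 upstream of the annotated start codon, 300 bases in all, from the RefSeq R64 sequence of the reference strain, from which W303 can differ, and printed on the strand of the gene. Capitals mark TGACTC or its reverse complement. The HIS4 window is chrIII:68434-68733 on the minus strand and holds 3 matches. The ARG1 window is chrXV:218811-219110 on the plus strand and holds 2.
HIS4: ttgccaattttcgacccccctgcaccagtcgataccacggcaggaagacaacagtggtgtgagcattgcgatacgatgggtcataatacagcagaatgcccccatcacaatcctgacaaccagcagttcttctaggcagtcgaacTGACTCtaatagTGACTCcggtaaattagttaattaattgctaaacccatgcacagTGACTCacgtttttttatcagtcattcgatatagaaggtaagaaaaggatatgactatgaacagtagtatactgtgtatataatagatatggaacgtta
ARG1: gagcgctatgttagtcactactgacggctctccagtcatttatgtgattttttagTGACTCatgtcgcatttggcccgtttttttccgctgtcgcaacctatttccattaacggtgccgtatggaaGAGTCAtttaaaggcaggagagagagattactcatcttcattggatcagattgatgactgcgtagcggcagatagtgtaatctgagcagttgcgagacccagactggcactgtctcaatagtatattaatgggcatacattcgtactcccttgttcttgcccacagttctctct
The element, searched on both strands, was found in 15 of the 19 windows of called members (78.9%). It was also in 18 of the 27 windows of members that were not called (66.7%), so that holding it did not set the called members apart within the list. Of all 4855 windows, 8.86% held it.

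YGP1, a secreted glycoprotein known for its induction on nutrient limitation, rose in both codes. It went from 26.4, 42.5 and 25.4 CPM to 101, 72.1 and 123 CPM in code 14. In code 18 it went from 16, 8.20 and 15.9 CPM to 409, 399 and 364 CPM. Every code 18 library was below code 14 in G1 and above it in M. The interaction of YGP1 was 3.21 (SE 0.34, edgeR adjusted p = 4.7e-07), and 3.57 (SE 0.35) in polyA RNA. It was the 1 called gene of the 24 tested members of the general stress list, whose median was 0.24.

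YRO2, a membrane protein related to the heat shock protein Hsp30, followed the same course at lower counts. It measured 8.81, 19.2 and 6.67 CPM in code 14 G1 and 76.3, 65.5 and 43.1 CPM in code 14 M. In code 18 it measured 1.23, 2.34 and 3.17 CPM in G1, which are 1, 2 and 3 counts, and 158, 115 and 92.4 CPM in M. The interaction of YRO2 was 3.25 (SE 0.64, edgeR adjusted p = 0.0031), with a size that rests on those few counts, and the call was lost without all libraries of replicate 1 (adjusted p = 0.093) or 2 (adjusted p = 0.16).

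Among genes of carbon metabolism, the tricarboxylic acid cycle genes ACO1 (aconitase), IDH1 and IDH2 (the 2 subunits of isocitrate dehydrogenase) and CIT1 (citrate synthase) were the 4 called of 36 tested members of the respiration list, whose median was 0.19. All 4 were positive, against 1.51% of all genes. ACO1 rose from 997, 884 and 1030 CPM to 1380, 1400 and 1360 CPM in code 14, and from 530, 590 and 528 CPM to 1210, 1160 and 1280 CPM in code 18. Its groups did not overlap, and its interaction was 0.64 (SE 0.11, edgeR adjusted p = 7.4e-04). IDH1 (0.75), IDH2 (0.63) and CIT1 (0.55) had interactions of like size. The calls of IDH2 and CIT1 were lost in 2 and 9 of the 12 fits without 1 library, with adjusted p up to 0.057 and 0.13.

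GPD1, a glycerol-3-phosphate dehydrogenase of the osmotic response, and TDH1, an isozyme of glyceraldehyde-3-phosphate dehydrogenase, were called among 21 genes of glycolysis and fermentation, whose median was -0.13. Both were positive, against 1.51% of all genes. GPD1 measured 163, 151 and 103 CPM in code 14 G1 and 129, 117 and 153 CPM in code 14 M, which overlap. In code 18 it rose from 63.0, 98.4 and 64.5 CPM to 202, 184 and 208 CPM, with an interaction of 1.46 (SE 0.24, edgeR adjusted p = 5.3e-04). TDH1 had an interaction of 2.02 (SE 0.47, edgeR adjusted p = 0.013). In code 18 M it measured 86.2, 26.7 and 42.2 CPM, and its call was lost in 4 of the 12 fits.

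Of the 12 largest positive interactions, those of TMT1, SNZ1, ARO5, YHI9 and DUR12 belonged, like that of YRO2 above, to genes in no list. TMT1, a trans-aconitate methyltransferase, fell in code 14 from 82.3, 50.7 and 46.7 CPM to 26.6, 24.9 and 19.3 CPM. In code 18 it rose from 17.3, 21.1 and 14.8 CPM to 35.7, 28.1 and 39.6 CPM. Its interaction was 2.30 (SE 0.40, edgeR adjusted p = 6.0e-04). SNZ1, of vitamin B6 synthesis, had 1.75 (SE 0.30), and the genes ARO5 and YHI9 had 2.18 (SE 0.29) and 2.11 (SE 0.36), each called in all 12 fits. DUR12, the urea amidolyase, had 1.83 (SE 0.36, edgeR adjusted p = 0.027), a call lost in 7 of the 12. In the methionine and sulfur list, 2 of 19 tested members were called positive, MET22 (1.16) and MET13 (0.94), against 1.51% of all genes. The call of MET13 was lost in 9 of the 12 fits.

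The 2 largest negative interactions among the called genes were phosphate genes. The PHO pathway induces secreted acid phosphatases and transporters when phosphate is scarce, through the activator Pho4, which binds the element CACGTG. PHO5, the main repressible acid phosphatase, measured 1.47, 17.8 and 8.01 CPM in code 14 G1 and 133, 286 and 164 CPM in code 14 M. Code 18 gave 59.2, 58.6 and 52.9 CPM in G1 and 8.41, 21.1 and 11.9 CPM in M. The order of the codes was turned, with code 18 above code 14 in G1 and below it in M. No groups overlapped within either code or within either arrest. PHO5 rose by 4.38 on the log2 scale in code 14 (edgeR adjusted p = 2.1e-04) and fell by 2.08 in code 18 (adjusted p = 0.024). The interaction was -6.46 (SE 0.73, edgeR adjusted p = 0.0016), and -6.17 (SE 0.39) in polyA RNA.

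PHO12, a second acid phosphatase with a near-identical copy elsewhere in the genome, rose in code 14 from 8.81, 13.7 and 13.3 CPM to 146, 271 and 184 CPM. In code 18 it measured 24.7, 30.5 and 24.3 CPM in G1 and 17.9, 49.1 and 26.4 CPM in M, which overlap. Its interaction was -3.87 (SE 0.53, edgeR adjusted p = 5.7e-04), and reads shared with its copy could be split between them in counting. PHO84, the high-affinity phosphate transporter, differed in another way, since it was higher in code 14 in both arrests. It rose there from 166, 236 and 161 CPM to 413, 511 and 346 CPM. In code 18 it measured 80.2, 78.5 and 88.9 CPM in G1 and 84.1, 104 and 84.5 CPM in M. The interaction of PHO84 was -1.05 (SE 0.23, edgeR adjusted p = 0.01).

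The fourth call, VTC4 of the vacuolar polyphosphate polymerase, was -0.69 (SE 0.18, edgeR adjusted p = 0.03) and was lost in 6 of the 12 fits without 1 library. In all, 4 of 15 tested members of the phosphate list were called negative and 0 positive, against 1.69% and 1.51% of all genes. The list median was -0.50, and in polyA RNA 6 members were called negative. PHO84 was not among these (-0.57, SE 0.28, adjusted p = 0.26), whereas PHO12 was (-4.01, SE 0.38). PHO5, PHO12 and PHO84 kept their calls in all 12 fits. When all 4 libraries of replicate 3 were left out, PHO5 (-6.47, adjusted p = 0.09) and PHO12 (-4.0, adjusted p = 0.11) lost their calls, and PHO84 (-0.96, adjusted p = 0.33) lost its call without those of replicate 1.

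The windows of PHO5 and PHO12 are shown for the CACGTG element, in capitals. The PHO5 window is chrII:431052-431351 on the minus strand and the PHO12 window chrVIII:551699-551998 on the plus strand, each with 1 match.
PHO5: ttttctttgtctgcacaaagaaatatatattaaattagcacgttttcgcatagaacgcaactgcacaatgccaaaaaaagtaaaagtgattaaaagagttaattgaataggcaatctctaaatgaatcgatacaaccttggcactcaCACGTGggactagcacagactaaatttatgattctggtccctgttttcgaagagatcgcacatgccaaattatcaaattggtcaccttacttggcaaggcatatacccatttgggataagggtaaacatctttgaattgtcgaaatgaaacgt
PHO12: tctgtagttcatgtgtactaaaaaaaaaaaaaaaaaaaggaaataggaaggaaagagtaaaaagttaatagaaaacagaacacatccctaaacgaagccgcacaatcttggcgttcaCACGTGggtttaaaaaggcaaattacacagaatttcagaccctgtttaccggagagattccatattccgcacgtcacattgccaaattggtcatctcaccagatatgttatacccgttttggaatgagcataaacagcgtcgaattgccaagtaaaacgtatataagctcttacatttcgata
The element, a palindrome that reads the same on both strands, was in 3 of the 4 windows of called phosphate genes and in 7 of the 11 windows of those not called. It was in 4.57% of all windows.

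Genes of the G1/S wave were a further group with negative interactions. Of 25 tested targets of MBF and SBF, 4 were called negative (CLN1, CSI2, POL30 and PRI2), against 1.69% of all genes. Of all 25 targets, 24 had a negative interaction, and the median was -1.13. Over these genes the median change from G1 to M was 1.22 in code 14 and -0.08 in code 18. In polyA RNA 3 of the 25 were called negative, and the median interaction was -1.39. CLN1, a G1 cyclin, measured 4.41, 9.59 and 6.67 CPM in code 14 G1 and 86.3, 73.4 and 25.3 CPM in code 14 M. Code 18 gave 35.8, 36.3 and 66.7 CPM in G1 and 54.7, 35.1 and 33.0 CPM in M. The code 14 groups did not overlap and the code 18 groups did. The interaction of CLN1 was -3.28 (SE 0.67, edgeR adjusted p = 0.015), a call lost in 5 of the 12 fits without 1 library, with adjusted p up to 0.069.

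POL30 encodes PCNA, the sliding clamp of the replication fork. It rose in code 14 from 25.0, 38.4 and 44.0 CPM to 63.1, 66.8 and 60.9 CPM. POL30 fell in code 18 from 80.2, 57.4 and 107 CPM to 46.3, 56.2 and 40.9 CPM, and no groups overlapped in either code or either arrest. The interaction of POL30 was -1.60 (SE 0.32, edgeR adjusted p = 0.003), and the call was kept in all 12 fits without 1 library. It was lost without all libraries of replicate 1 (-1.41, adjusted p = 0.20), and in polyA RNA POL30 was not called (-1.24, SE 0.40, adjusted p = 0.12). CSI2, a gene linked to chitin synthesis, fell in code 18 alone, from 61.7, 44.5 and 103 CPM to 7.36, 12.6 and 13.2 CPM. In code 14 CSI2 measured 35.3, 32.9 and 29.4 CPM in G1 and 34.9, 44.5 and 14.9 CPM in M, and its interaction was -2.65 (SE 0.53, edgeR adjusted p = 0.0053).

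PRI2, a primase subunit, had an interaction of -1.26 (SE 0.31, edgeR adjusted p = 0.016), which was lost without code 14 M replicate 2 or code 18 G1 replicate 3. RAD53, the checkpoint kinase, measured 7.34, 12.3 and 12 CPM in code 14 G1 and 36.5, 22.3 and 26.8 CPM in code 14 M. In code 18 it measured 30.9, 26.9 and 51.8 CPM in G1 and 18.9, 29.5 and 26.4 CPM in M, which overlap. Its interaction was -1.97 (SE 0.48, edgeR adjusted p = 0.014), lost without code 14 G1 replicate 1, code 18 G1 replicate 3 or code 18 M replicate 1, with adjusted p up to 0.071. SPT21, an activator of histone gene transcription, rose in code 14 from 13.2, 11 and 16 CPM to 53.1, 59.0 and 44.6 CPM, with an interaction of -1.97 (SE 0.41, edgeR adjusted p = 0.0036). SCC2, of the cohesin loader, was the 1 called of 7 tested cohesin genes (-0.91, edgeR adjusted p = 0.024) and lost its call in 5 of the 12 fits. Of the 7 cohesin values, 6 were below 0, and their median was -0.91 in total RNA and -0.98 in polyA RNA. PRI2 was also called in polyA RNA (-1.01, edgeR adjusted p = 0.039). CLN1 (-3.06), CSI2 (-2.66), RAD53 (-1.06), SPT21 (-1.76) and SCC2 (-0.71) were not called there, with edgeR adjusted p of 0.058 to 0.11.

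The 2 libraries that stood apart bear on the size of these values. Without code 18 G1 replicate 3 the median of the G1/S list was -0.75 and 4 members were called. Without code 14 M replicate 3 the median was -1.24 and 7 were called. Without code 18 G1 replicate 3 the interactions of CLN1 (-2.91), CSI2 (-2.24), POL30 (-1.35) and SPT21 (-1.55) were still called. Those of PRI2 (-1.04), RAD53 (-1.62) and SCC2 (-0.72) were not, with adjusted p of 0.071 to 0.12. Without code 14 M replicate 3 all 7 were called, at -3.67 for CLN1, -3.00 for CSI2, -1.65 for POL30, -2.09 for SPT21, -1.32 for PRI2, -2.02 for RAD53 and -1.03 for SCC2. Over all 12 such fits the count of called list members ran from 2, without code 14 M replicate 2, to 9, without code 18 G1 replicate 2, and it was 0 by edgeR without all libraries of replicate 1 (10 at an unadjusted p below 0.05). Beside this, the mitotic markers summed to 55.0 to 108 CPM in code 14 G1 and 62.3 to 90.3 CPM in code 18 G1, and the pheromone-induced markers to 6380 to 6590 CPM and 3940 to 5560 CPM. The part that the completeness of the arrests had in the interaction was not tested.

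The POL30 window, chrII:425867-426166 on the minus strand, is shown for the MBF element ACGCGT, in capitals, with 1 match.
POL30: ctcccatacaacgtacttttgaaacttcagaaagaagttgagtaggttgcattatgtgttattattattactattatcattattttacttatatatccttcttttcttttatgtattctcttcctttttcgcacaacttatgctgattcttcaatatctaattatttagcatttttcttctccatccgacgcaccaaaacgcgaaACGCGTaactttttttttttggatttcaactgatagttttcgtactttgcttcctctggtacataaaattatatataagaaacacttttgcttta
The element reads the same on both strands. It was in the windows of POL30 and PRI2 among the 4 called G1/S genes, in 11 of the 21 windows of members not called (52.4%) and in 4.16% of all windows. The SBF element CGCGAAA, whose first letters CGCG also lie within ACGCGT, was in the windows of POL30 and CSI2 and in 4.86% of all windows.

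The core histone genes, which are transcribed in S phase, had mostly negative interactions, and 1 of 7 tested was called. In M, 4 of the 7 were lower in code 18 than in code 14 and 0 higher, against 2.16% and 1.87% of all genes. In G1 0 passed in either direction (edgeR quasi-likelihood test). From G1 to M, 6 rose in code 14 and 1 in code 18, against 9.75% and 7.68% of all genes. HTA1, for histone H2A, measured 29.4, 26 and 26.7 CPM in code 14 G1 and 71.4, 78.6 and 38.6 CPM in code 14 M. The code 18 values were 28.4, 39.8 and 41.3 CPM in G1 and 25.2, 29.5 and 44.9 CPM in M, which overlap. The interaction of HTA1 was -1.36 (SE 0.39, edgeR adjusted p = 0.047), and the call was lost in 9 of the 12 fits without 1 library and when library totals alone were used for scaling. The HTA1 value was -1.63 (adjusted p = 0.0098) without code 14 M replicate 3 and -1.26 (adjusted p = 0.12) without code 18 G1 replicate 3.

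HTB2 (-1.80, SE 0.60), HHF1 (-1.44, SE 0.63), HHT1 (-1.16, SE 0.40), HHF2 (-0.89, SE 0.68) and HTB1 (-0.82, SE 0.29) had values of the same sign, with edgeR adjusted p of 0.092 to 0.66. HHT2 had 0.01 (SE 0.25). In code 14 M, replicate 3 was the lowest library for each of these 7 genes, and HTA1 and HTB2 stood there at 38.6 and 17.8 CPM against 71.4 and 43.2 CPM or more. Without that library HTB1 (-1.0), HTB2 (-2.16) and HHT1 (-1.45) also passed, with adjusted p of 0.045, 0.022 and 0.0065. Without code 18 G1 replicate 3 the values were smaller in size and did not pass. They were -1.62 for HTB2, -1.03 for HHF1, -0.91 for HHT1, -0.48 for HTB1 and -0.28 for HHF2, with edgeR adjusted p of 0.24 to 0.9. The list median was -0.78 in that fit, with 0 core histones called, against -1.54 and 4 called without code 14 M replicate 3. In polyA RNA HTB1 (-1.12, adjusted p = 0.019) and HTB2 (-2.12, adjusted p = 0.047) were called, and HTA1 (-0.62, SE 0.30, adjusted p = 0.27) was not. Paralogous histone genes are similar in sequence, and reads that fit both copies could be split between them.

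**Figure D2:**
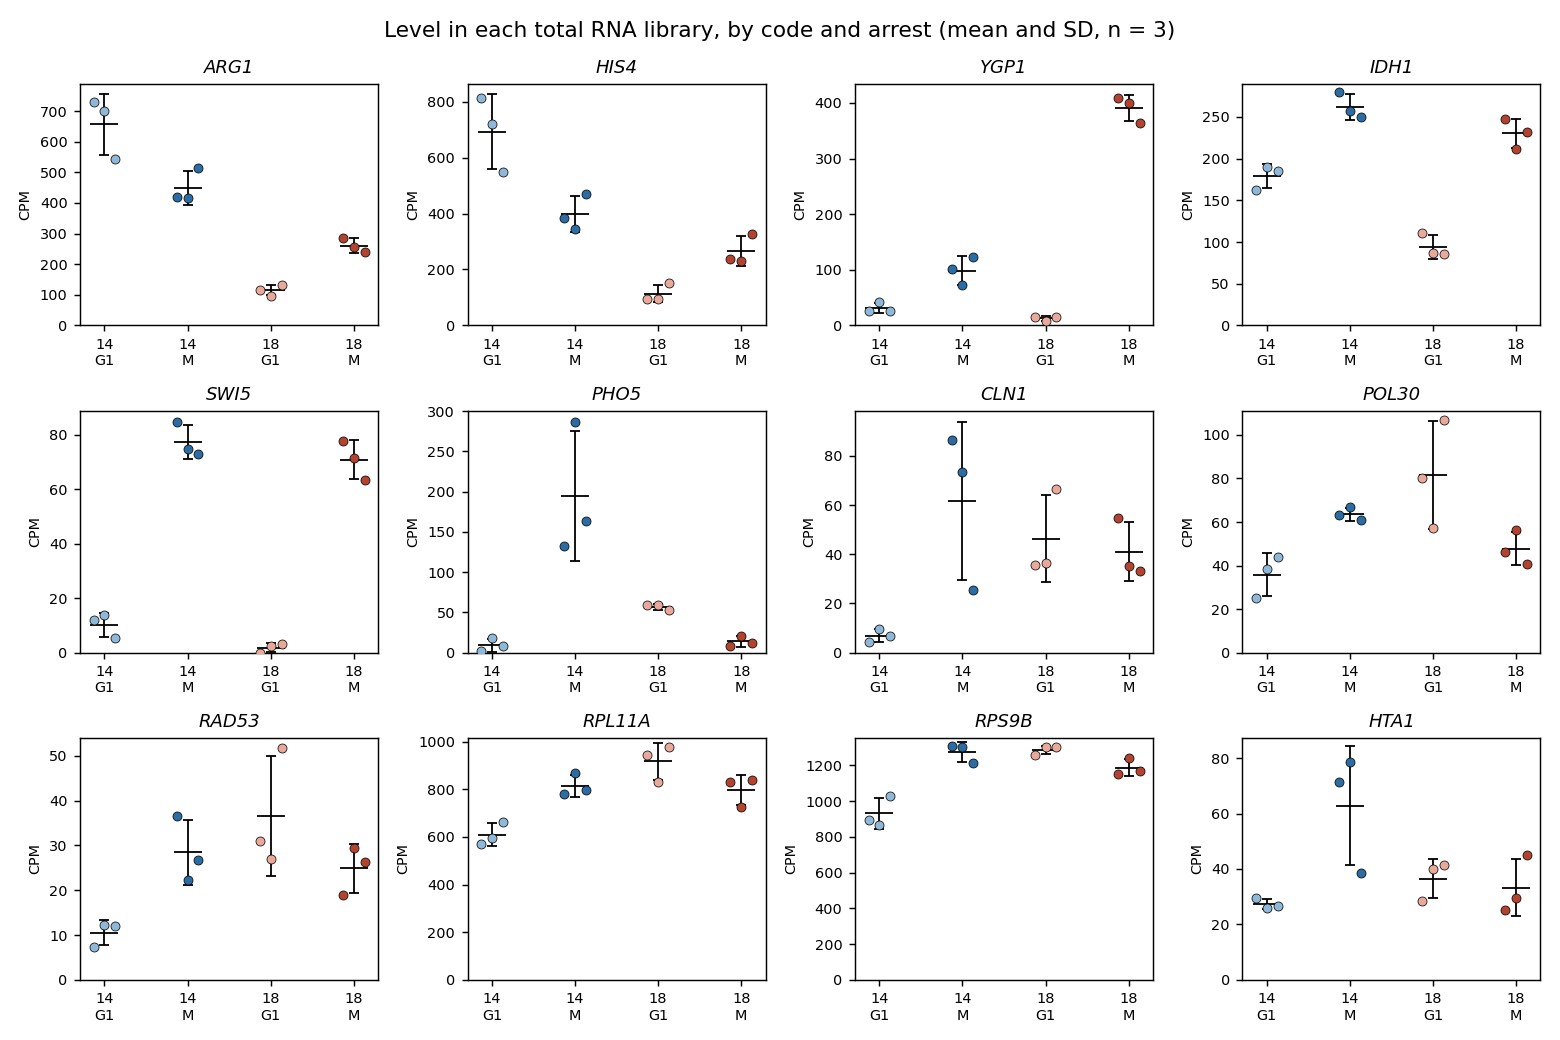
Levels of 12 genes in CPM (y axes, each starting at 0) in the 3 libraries of each code and arrest, as points, with the mean (long bar) and SD (whiskers). ARG1, HIS4, YGP1, PHO5 and POL30 show no overlap of G1 and M libraries in either code, whereas HTA1 and CLN1 overlap in code 18.

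Among later cell cycle genes, 2 of 20 tested members of the CLB2 cluster, expressed from G2 to M, were called positive, against 1.51% of all genes. SWI5, a transcription factor of the M/G1 transition, measured 11.8, 13.7 and 5.34 CPM in code 14 G1 and 84.6, 74.7 and 72.8 CPM in code 14 M. In code 18 it measured 0, 2.34 and 3.17 CPM in G1, which are 0, 2 and 3 counts, and 77.8, 71.6 and 63.3 CPM in M. The codes overlapped in M and not in G1. Its interaction was 2.20 (SE 0.62, edgeR adjusted p = 0.041), lost in 8 of the 12 fits and under a stricter filter on low counts (adjusted p = 0.07). HOF1, a cytokinesis protein, had a single count over the 3 libraries of code 18 in G1, against 3, 8 and 0 counts in code 14 G1. Its fitted interaction of 3.86 (SE 1.06, edgeR adjusted p = 0.039) depends on how such zeros are handled, is no bound on the difference, and was lost in 9 of the 12 fits. In polyA RNA the HOF1 interaction was 0.83 (SE 0.22) and that of SWI5 was 1.31 (SE 0.37), neither of them called. The list median was 0.44 in total and 0.26 in polyA RNA.

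Of 31 tested pheromone and mating genes, 1 was called, near the 3.20% of all genes, and the list median was -0.01. SST2, the regulator that desensitises cells to pheromone, fell in both codes. It went from 793, 760 and 713 CPM to 101, 77.3 and 66.9 CPM in code 14, and from 631, 629 and 504 CPM to 28.4, 30.9 and 39.6 CPM in code 18. The fall was larger in code 18 (interaction -0.95, SE 0.21, edgeR adjusted p = 0.0063). NFG1 likewise fell in both codes, with an interaction of -2.41 (SE 0.66, edgeR adjusted p = 0.035) that rests on 1 or 2 counts per library in code 18 M and was lost in 9 of the 12 fits.

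Ribosomal protein genes made up the largest group of negative calls. Of 138 tested genes, 40 were called negative and 0 positive, 22 of 82 for the large subunit and 18 of 56 for the small subunit, against 1.69% of all genes. The differences were small and alike: 134 of the 138 values were below 0, the median was -0.38, and the called genes ran from -0.79 to -0.39. In code 14, 87 of the genes rose from G1 to M and 0 fell, whereas in code 18 0 rose and 3 fell. In G1, 99 were higher in code 18 than in code 14, and in M 0 passed (edgeR quasi-likelihood test), with 7 at an unadjusted p below 0.05.

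RPL11A, a 60S subunit protein that contacts the 5S rRNA, had one of the clearer patterns. It measured 570, 594 and 662 CPM in code 14 G1 and 778, 867 and 797 CPM in code 14 M. In code 18 it measured 943, 830 and 977 CPM in G1 and 829, 725 and 837 CPM in M. The code 14 groups did not overlap, and those of code 18 did. Its interaction was -0.62 (SE 0.12, edgeR adjusted p = 0.0029). RPS9B, of the 40S subunit, rose from 893, 868 and 1030 CPM to 1310, 1300 and 1210 CPM in code 14. In code 18 RPS9B measured 1260, 1300 and 1300 CPM in G1 and 1150, 1240 and 1170 CPM in M, with an interaction of -0.57 (SE 0.11, edgeR adjusted p = 0.0028).

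RPL9A (-0.71), RPL13B (-0.57), RPL26B (-0.58), RPS23B (-0.59), RPS24B (-0.65) and RPS3 (-0.51) were the other genes named. The rule took the 4 genes with the smallest adjusted p in each subunit. RPS3 lost its call without code 14 M replicate 2 alone, and the other 7 named genes, RPL11A and RPS9B included, kept theirs in all 12 fits. Without all libraries of replicate 1 none of these 8 genes was called, with values of -0.69 to -0.39 and adjusted p of 0.13 to 0.36. Without those of replicate 2 RPL9A alone was, the other adjusted p being 0.085 to 0.21. Many ribosomal protein genes have near-identical paralogues, so that reads could be split between the copies.

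The polyA libraries gave another picture of these genes. There 0 of the 138 ribosomal protein genes were called by edgeR, 8 having an unadjusted p below 0.05, and the median interaction was -0.10, with values from -0.91 to 0.28. RPL11A had -0.08 (SE 0.12) and RPS9B -0.20 (SE 0.13) in polyA RNA. The difference between the library types was tested in a fit of all 24 libraries. The median of that difference over the ribosomal protein genes was -0.32, against 0.01 over all genes, but 0 genes passed, the smallest adjusted p being 0.4 for these genes and 0.31 for all genes (edgeR quasi-likelihood test). At an unadjusted p below 0.05 there were 41 of the 138 and 254 of all 4962. The number of calls in total RNA also moved with single libraries. It was 79 without code 14 G1 replicate 3 and 12 without code 14 M replicate 2. It was 14 without code 18 M replicate 1, and 16 and 18 without code 18 G1 replicates 1 and 3. It was 20 and 18 without code 14 G1 replicates 1 and 2, 24 without code 14 M replicate 3, and 20 and 24 without code 18 M replicates 2 and 3. The median stayed between -0.43 and -0.35 in these fits. With all libraries of a replicate number left out, 0 genes were called by edgeR without replicate 1 (66 at an unadjusted p below 0.05), 2 without replicate 2 and 46 without replicate 3, with medians of -0.33, -0.38 and -0.42.

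Ribosome biogenesis genes, which encode nucleolar processing factors, behaved differently within each code. Of 58 tested, 4 were called negative (NSR1, NOP58, RRP5 and RRP12), against 1.69% of all genes. The median was -0.29 in total and in polyA RNA. Here it was the fall in code 18 that passed, in 32 genes, against 7.30% of all genes. In code 14, 5 fell, which is near the 7.70% of all genes. RRP12, an export factor for pre-ribosomes, measured 539, 573 and 605 CPM in code 14 G1 and 589, 569 and 535 CPM in code 14 M. In code 18 it fell from 597, 636 and 622 CPM to 447, 435 and 426 CPM, with an interaction of -0.48 (SE 0.12, edgeR adjusted p = 0.015). The call of RRP12 was lost without code 14 M replicate 2, where 0 of the 58 genes were called, and without code 14 G1 replicate 3 there were 9. Of 59 tested snoRNAs, the guides of rRNA modification, 0 were called by edgeR, with 6 at an unadjusted p below 0.05. Their median was -0.24, with 55 values below 0. DESeq2 also called 0, but it gave most genes no adjusted p, so its count is no second test.

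**Figure D3:**
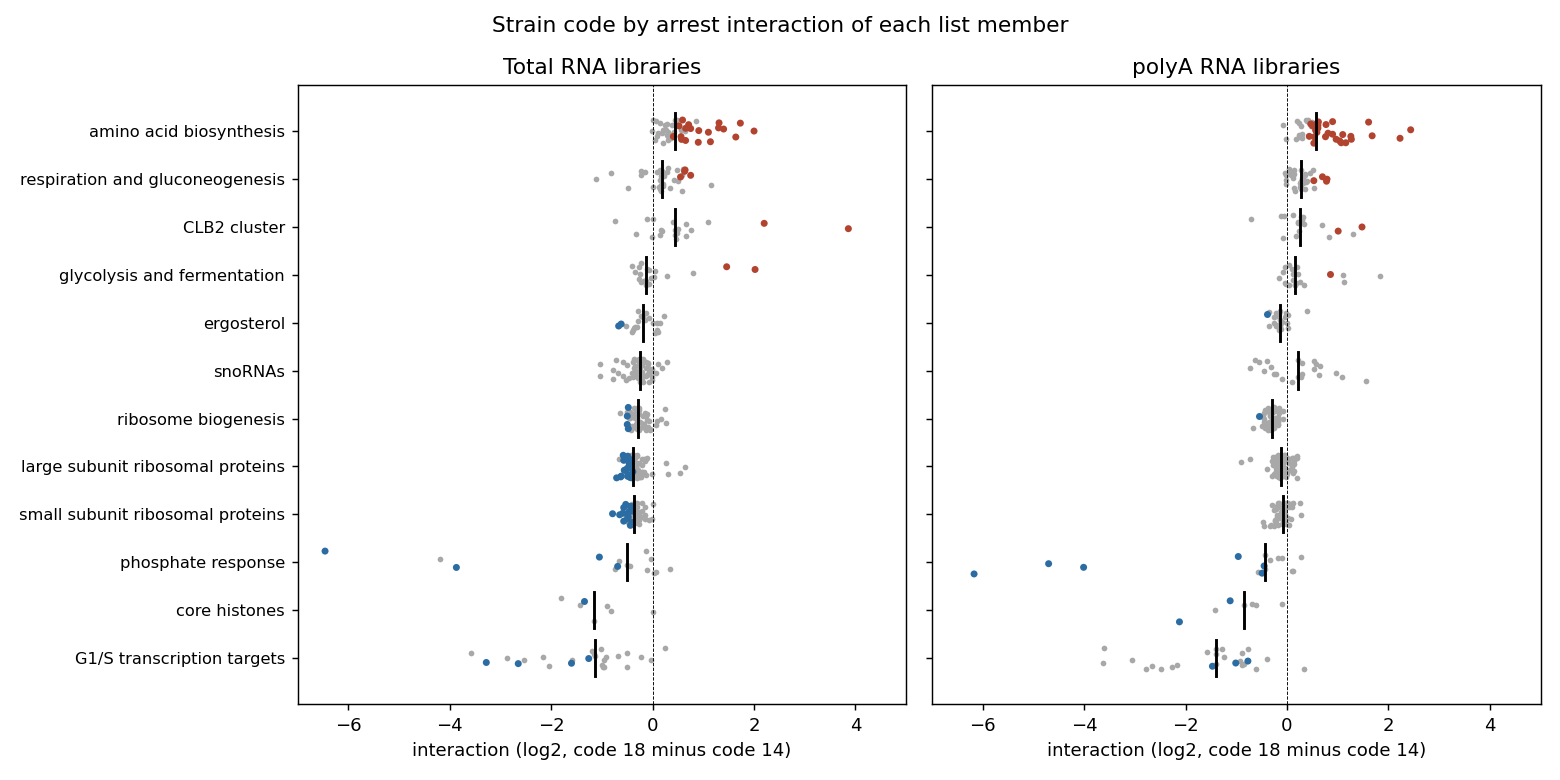
The interaction (x axis, log2, code 18 minus code 14) of each tested member of 12 gene lists, in total RNA (left) and polyA RNA (right). Red and blue points passed the test as positive and negative, grey points did not, and black bars are list medians. Ribosomal protein genes lie near -0.38 in total RNA and near -0.10 in polyA RNA, whereas amino acid biosynthesis genes lie at positive values in both.

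In the ergosterol pathway 2 of 23 genes were called negative, against 1.69% of all genes. They were ERG11 and ERG3, both sterol-modifying enzymes. ERG11 rose in code 14 from 714, 712 and 707 CPM to 898, 901 and 905 CPM, and fell in code 18 from 978, 893 and 978 CPM to 699, 821 and 757 CPM. Its groups did not overlap within either code or within either arrest, and its interaction was -0.67 (SE 0.11, edgeR adjusted p = 5.3e-04). ERG3 had -0.62 (SE 0.12). SED1, an abundant cell wall mannoprotein, rose in both codes, from 2100, 2210 and 2070 CPM to 2900, 2420 and 2770 CPM in code 14 and from 2030, 2120 and 2080 CPM to 4020, 4170 and 4210 CPM in code 18. Its interaction was 0.65 (SE 0.11, edgeR adjusted p = 3.1e-04). Of the same 19 cell wall genes, CHS3 (-0.46) and GAS1 (-0.40) were called negative and lost the call in 11 and 10 of the 12 fits.

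TOP2, topoisomerase II, was the 1 called of 12 factors bound at the ribosomal DNA. It rose from 145, 136 and 137 CPM to 241, 265 and 259 CPM in code 14, and measured 184, 169 and 201 CPM in G1 and 209, 222 and 216 CPM in M in code 18. Its interaction was -0.65 (SE 0.16, edgeR adjusted p = 0.013), and -0.83 (SE 0.17) in polyA RNA, and its call in total RNA was lost without code 14 M replicate 2 or code 18 G1 replicate 3. FTR1, the iron permease, was the 1 called of 21 iron regulon genes (-0.78, edgeR adjusted p = 0.02), a call lost in 4 of the 12 fits. ATF1, an alcohol acetyltransferase (-1.50, SE 0.32), and ZRT2, a zinc transporter (-1.44, SE 0.32), were called in total and in polyA RNA and in all 12 fits. Both lost their calls without all libraries of replicate 1, and ATF1 also without those of replicate 2 (-1.14, edgeR adjusted p = 0.27). CQD1, of coenzyme Q distribution, had -2.01 (SE 0.50) in total RNA and 0.25 (SE 0.20) in polyA RNA. Its call was lost without code 18 G1 replicate 2. It was also lost without all libraries of each replicate number in turn, with edgeR adjusted p of 0.095 to 0.27.

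Of the 5 condensin genes, YCG1 included, 0 were called by edgeR, with 1 at an unadjusted p below 0.05 and a list median of -0.26. DESeq2 called 0 as well, but it gave most genes no adjusted p, so a 0 there is no second test. There were also 0 calls by edgeR among 14 replication licensing genes, 10 damage-responsive genes, 17 M/G1 genes, 24 spindle and kinetochore genes, 25 heat shock chaperones, 13 hexose transport genes, 10 COS genes and 6 mitochondrially encoded protein genes. Of these 119 genes, 13 had an unadjusted p below 0.05 in edgeR, and DESeq2, with the same limit, called 1. Their medians lay between -0.50, for the M/G1 genes, and 0.01. Of the tRNA and seripauperin genes 0 passed the filter on low counts. Among the called genes, 67 were in no list, 44 of them positive.

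Over all called genes, the share of upstream windows with a given element differed most from the background for the Gcn4 element. It was in 31 of 75 windows of positive genes (41.3%), in 4 of 84 windows of negative genes (4.76%) and in 8.86% of all windows. The stress response element AGGGG was in 37.3% of the positive, 13.1% of the negative and 23.0% of all windows. The pheromone response element TGAAACA (6.67%, 11.9% and 7.97%) and the PAC element GATGAG (20.0%, 19.0% and 18.8%) lay closer to the background. All were searched on both strands, and a match is a description of the letters, not evidence that a factor binds.

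**Figure D4:**
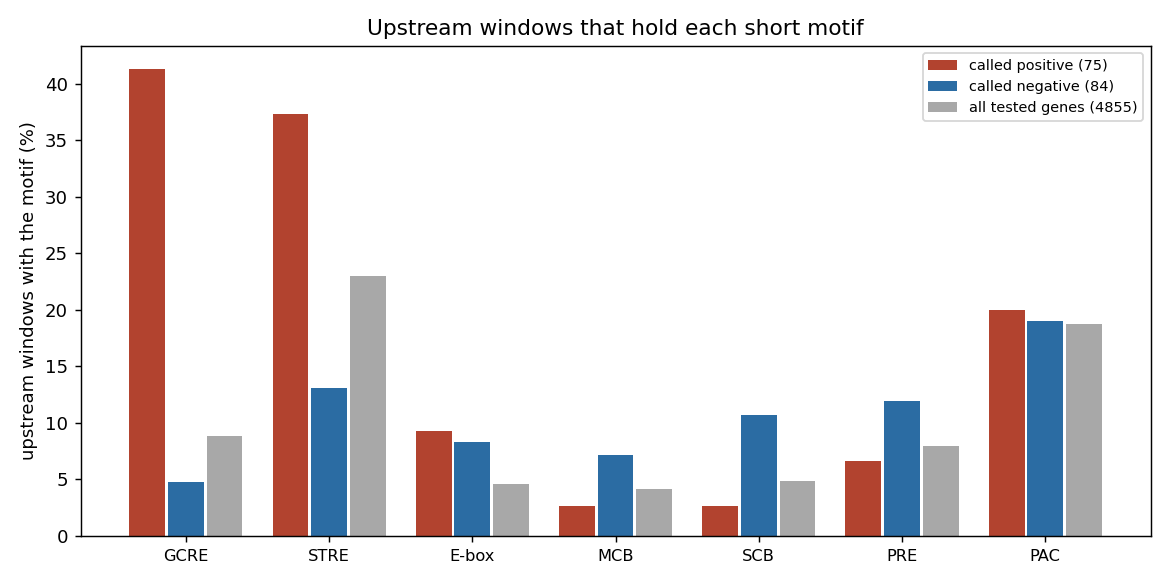
Percent of upstream windows (300 bases, y axis) that hold each of 7 short elements, for positive calls (red), negative calls (blue) and all tested genes (grey). The Gcn4 element (GCRE) is in 41.3% of positive, 4.76% of negative and 8.86% of all windows.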

How the data were processed

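Samples were grouped by arrest and library type from their titles. The authors trimmed reads with cutadapt 1.9.1, aligned them with STAR 2.5.2a to the Ensembl R64-1-1 genome with ERCC sequences added, and estimated expected counts per gene with RSEM 1.3.0. RSEM shares out ambiguous reads, so near-identical genes have uncertain counts. The deposited table holds 24 columns of expected counts, used here after rounding, and 24 TPM columns, not used. The study analysed its counts with DESeq2 1.12.3.

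Column names give arrest, code, library type and replicate number. Columns were grouped by name, and the codes were not assigned to strains. ERCC (92) and RDN (14) rows were left out. Genes were kept by filterByExpr (minimum count 10) over the 4 combinations of code and arrest, scaled by TMM and tested in R 4.3.3 with edgeR 4.0.16 (robust quasi-likelihood, code × arrest), with Benjamini-Hochberg adjustment and a threshold of 0.05. CPM of single genes include the TMM scaling, and sums over lists do not. Standard errors are those that the F statistic implies. The fit was tested on simulated data. DESeq2 1.42.0, other scalings and filters, replicate blocks and left-out libraries were alternatives. Gene names and upstream windows came from RefSeq R64, the same assembly release, which named 4860 of the 4962 genes tested. In the amino acid and damage-responsive lists 1 member each was not matched.

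Named genes were the 12 largest interactions in each direction with a mean of at least 2 log2 CPM, YCG1 and the core histones, and up to 4 called members per list with the smallest adjusted p. Some items that these rules cover are not reported here. The genes and lists were chosen with earlier results of these data known. The labels call the 3 samples of each group biological replicates. With 3 libraries per group, precision is limited by the 595508 to 979155 counts per library that remain without RDN rows.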

Additional observations from a re-analysis of the deposited data

Results flagged for a closer look

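The change from G1 to M arrest differed between the codes by a test of the difference itself in 75 genes with a positive and 84 with a negative interaction (edgeR quasi-likelihood test). ERCC spike-in rows, which no comparison here used, held 191 counts in the library with the fewest and 646 in that with the most. No label used here says whether spike-in RNA was added to these libraries, and none is a control without it.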

How the results depend on the processing

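Under the alternatives run, none of the 58 named called genes changed direction where a value was given (31 of them under DESeq2). The positive count moved to 49 with DESeq2's Wald test, which gave an adjusted p for 977 genes only and shared 40 of these calls, and its negative count was 98, with 64 shared. With only nuclear protein-coding open reading frames the counts were 78 and 124, and with library totals alone 83 and 62, where ribosomal protein calls numbered 26 against 40. No scaling moved the median of all genes from 0.02 by more than 0.1. The counts ran from 17 to 115 (positive) and from 2 to 171 (negative) with replicates left out, the lowest being without all 4 libraries of replicate 1 and the highest without code 14 G1 replicate 3. Without replicate 2 they were 26 and 14, and without replicate 3 79 and 120. The cause was not tested.

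M cells were released from the G1 cultures, but no label says that equal numbers mark 1 culture. Deviations of same-numbered libraries correlated at -0.002 to 0.22, with 3 of 6 pairs above 0.1. Those of other numbers in the same code correlated at -0.21 to 0.13. These values do not decide whether the numbers mark pairs, and the main fit did not take them as pairs. A replicate block for each culture gave 89 positive and 145 negative calls, and a replicate block for each number 93 and 138. With the culture block 61 of the 138 ribosomal protein genes were called negative, against 40 without it. The culture block left HOF1 (adjusted p = 0.1) and SWI5 (adjusted p = 0.052) uncalled and changed no other call of a named called gene, and the number block changed none. Of 6 G1 libraries, 5 correlated best with the M library of their own number, and 4 of 6 M libraries with the G1 library of theirs.

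HHT2, near 0 and not called, had -0.0018 with RDN rows kept, -0.01 with nuclear open reading frames only, -0.0047 with the number block, -0.0026 without mitochondrial rRNA rows (a setting added after seeing the data), and -0.18 to 0.23 with replicates left out. Depth limits the genes with few counts, such as HOF1, SWI5 and NFG1, whose sizes rest on 0 to 3 counts per library in 1 group.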
